A study of Mus musculus with 3 samples.

Results

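The cells described were long-term hematopoietic stem cells (LT-HSCs) with and without tags of a CD27 antibody, selected on the count of CD27 antibody tags in each cell. CD27-positive cells had 2 or more CD27 tags and numbered 825, CD27-negative cells had none and numbered 1578, and 1226 cells with 1 tag belonged to neither group. Together they made up the 3629 cells with 10 or more tags over 12 antibodies, out of 3724 cells with antibody counts. LT-HSCs can sustain blood formation for life after transplantation. Here they were sorted from c-Kit-enriched bone marrow of female wild-type mice, 24 months old, as the CD34-, CD48- and CD150+ part of the lineage-negative Sca-1+ c-Kit+ fraction. DOGMA-seq then read open chromatin (ATAC), RNA and oligonucleotide-tagged antibodies in each cell. The 3 libraries, 1 for each assay, came from 1 pool of cells, and the sources used here do not give the number of mice in it. Both groups thus shared age, sex, genotype, sort and library, and were told apart by the tag count alone.

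CD27 is a receptor of the tumor necrosis factor (TNF) receptor family. Its ligand CD70 brings together CD27 molecules on a cell, which recruit TRAF adaptor proteins and activate NF-kB and JNK signaling, and on T and B cells the receptor acts as a costimulator of expansion and survival. It is also present on blood progenitors. In the study, CD27 and CD357 were markers of multi-lineage HSCs (MUL-HSCs), while CD61 and CD274 marked the platelet-biased HSCs (PLT-HSCs). Whether cells with CD27 tags also differed in the other antibodies, in depth or in chromatin is the question the comparison addressed.

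Each group came from 1 pool, so no spread between replicates could be measured and no test was run. All intervals are 95% intervals (Poisson, exact Clopper-Pearson binomial or conditional binomial) and cover counting error only, not the spread between mice or between cells. The ATAC library held 43706143 fragments and the RNA library 11497929 UMIs, of which only totals per cell were used here. Kept cells held 114345 antibody tags, 3304 of them for CD27 (2.89%), and 38498362 nuclear ATAC fragments. CD27-positive cells contributed 9176412 and CD27-negative cells 16481580 of these fragments.

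The antibody tags that set the groups, and those of the other 3 subtype markers are shown in full, 5′ to 3′, because each count rests on reads assigned to these letters.
CD27: CAAGGTATGTCACTG
CD61: TTCTTTACCCGCCTG
CD274: TCGATTCCACCAACT
CD357: GGCACTCTGTAACAT

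CD27 counts were low in nearly all cells. The mean was 0.910 tags per cell (0.880 to 0.942). Counts of 0, 1 and 2 were found in 43.5%, 33.8% and 14.4% of kept cells, 302 cells (8.32%) had 3 or more, and the highest count was 14. Just inside the threshold lay the 523 cells with exactly 2 tags, with a median of 30 tags for the other 11 antibodies, and just outside it the 1226 cells with 1 tag, with a median of 28. The minimum of 10 tags separated 36 cells with 9 tags, of which 2 had a CD27 count of 2 or more, from 33 cells with 10 tags, of which 2 did. A count of 0 in 1 cell is compatible with an average of up to 3 tags, so the absence of tags was not the absence of the protein. Nor do 2 tags show the protein, since no cell type without CD27 was in the pool to give the background of free or unspecific tags, and that background was not tested.

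The counts did not fall into 2 separate classes. Their variance was 1.26 times their mean. If every cell had carried CD27 tags in proportion to its other tags, Poisson counts would have placed 43.4% of cells at 0, 23.1% at 2 or more and 7.88% at 3 or more, against observed shares of 43.5%, 22.7% and 8.32%. This is a description of the shape of the counts and not a test. CD27 was less than proportional to the other tags, however, with 4.81 CD27 tags for every 100 other tags in cells with 8 to 19 other tags and 2.22 in cells with 41 to 162. This ratio divides by the count that set the strata. Cells with fewer than 10 other tags also passed the minimum only through CD27 tags, and 819 of the 825 positive cells had 10 or more other tags.

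The group a cell fell into moved with its antibody depth. Among cells with 8 to 19 other tags, 15.8% (13.4 to 18.6) were CD27-positive and 49.6% were CD27-negative. Among cells with 41 to 162 other tags, 31.7% (28.3 to 35.3) were CD27-positive and 35.6% were CD27-negative. These were the outer of 5 strata of about equal size, and the 3 between them had 19.4%, 22.0% and 25.5% CD27-positive cells in order of depth. Strata of ATAC depth differed less, from 21.3% CD27-positive in the shallowest cells to 26.3% in the deepest.

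**Figure D1:**
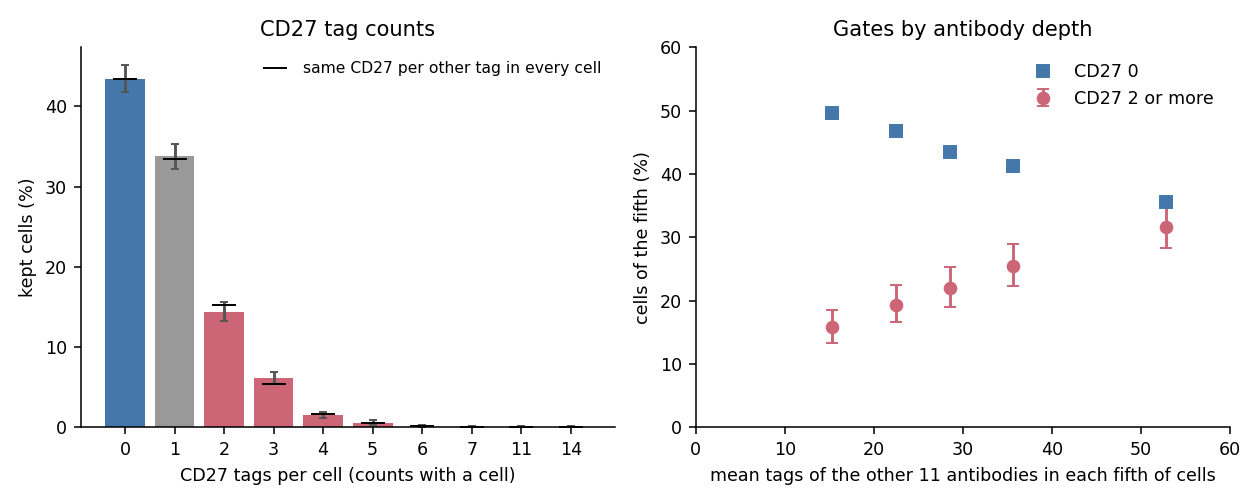
Left, the share of the 3629 kept cells (y axis, %) with each CD27 tag count (x axis), blue for CD27-negative, gray for 1 tag and red for CD27-positive cells, with 95% binomial intervals; black dashes are the shares expected if CD27 were proportional to the other tags. Right, the share of cells in each gate (y axis, %) in 5 strata of cells by the tags of the other 11 antibodies (x axis, mean of each stratum), where CD27-positive cells range from 15.8% to 31.7%.

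The summed other antibodies were higher in CD27-positive cells, and so were 5 of the 11 beyond counting error, among them both markers that the study placed opposite to CD27. The other 11 antibodies summed to a mean of 29.0 tags in CD27-negative cells, 30.1 in cells with 1 tag, 32.9 in cells with 2 and 36.8 in cells with 3 or more, and the ratio of positive to negative was 1.18 (1.17 to 1.20). CD274 (PD-L1, an inhibitory ligand for T cells) had means of 19.98 in negative and 24.3 in positive cells, a ratio of 1.22 (1.19 to 1.24). CD61 (integrin beta 3, a subunit of platelet and megakaryocyte integrins) had means of 3.64 and 4.16, a ratio of 1.14 (1.096 to 1.19). CD357 (GITR, a TNF receptor family member like CD27) had means of 3.15 and 3.47, a ratio of 1.103 (1.05 to 1.15). Per cell, the other 3 subtype markers were thus all higher in the cells selected on CD27. The study placed its markers by normalized tags between clusters of cells set by RNA and chromatin, and found the same top markers in old mice. It also tested the panel on sorted cells, with a Vwf reporter, single-cell gene expression and single-cell transplantation. Raw tags per cell between CD27 groups are a different measure and do not bear on those placements.

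Among the less abundant antibodies, CD201 (EPCR, an HSC marker) had means of 0.380 and 0.463 and a ratio of 1.22 (1.07 to 1.39). P2X7R (an ATP-gated channel) had means of 0.527 and 0.623 and a ratio of 1.18 (1.06 to 1.32). The intervals of these 5 antibodies lay above 1, and the remaining 6 intervals all contained 1. Of those 6, MERTK and CD106 (VCAM-1) had ratios of 1.09 and 1.05. CD68, CD163, CD206 and CD183 (CXCR3) had ratios between 0.756 for CD163 and 0.874 for CD206, each from fewer than 200 tags in negative cells, and CD163 and CD206 tags were found in only 1.82% and 1.94% of positive cells. Tags that matched no antibody had means of 4.17 and 4.72, a ratio of 1.13 (1.09 to 1.18), so unmatched tags also were higher in CD27-positive cells.

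For the 5 antibodies with intervals above 1, the ratios lay closer to 1 between cells with similar sums of other tags, least so for CD201. Combined over the 5 strata of other tags, the ratio was 1.03 for CD274, 1.04 for CD61, 0.985 for CD357, 1.11 for CD201 and 1.07 for P2X7R, and the sum of the 11 had a ratio of 1.02. The scarce antibodies moved further from 1, CD68 to 0.690, CD163 to 0.737, CD183 to 0.759 and CD206 to 0.774. The strata are wide, the deepest from 41 to 162 tags, and their definition holds the antibody itself. CD274 gave 31529 of the 45770 other tags in negative cells and 20028 of 28350 in positive cells. The strata thus matched cells largely on CD274, and ratios near 1 for CD274 and for the sum follow from their construction. Per tag of the remaining 10 antibodies, CD274 was higher in positive cells by a ratio of 1.09 (1.07 to 1.11), while CD357 was lower at 0.923 (0.881 to 0.966) and CD68 at 0.666 (0.508 to 0.867). The other 8 antibodies had intervals that contained 1, among them CD61 at 0.961 (0.921 to 1.003). For each antibody but CD274, most of the remaining tags were CD274 tags, so these ratios fall as CD274 rises. A ratio without CD274 among the remaining tags was not computed. When CD27 was instead scaled by the centred log ratio of the 12 antibodies within each cell, the 25% of cells with the highest CD27 had fewer other tags than the 25% with the lowest, a ratio of 0.862. This scale subtracts the level of the other antibodies from CD27, so a lower sum at its upper end follows from its construction.

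**Figure D2:**
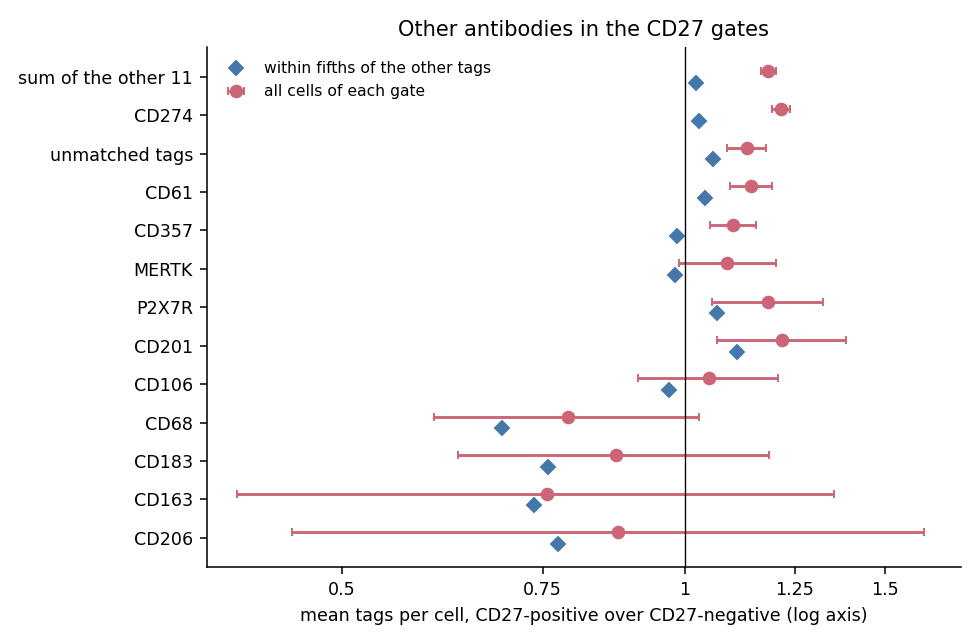
Ratio of mean tags per cell in CD27-positive over CD27-negative cells (x axis, log scale) for each of the other 11 antibodies, their sum and the unmatched tags (y axis). Red points with 95% intervals use all 825 and 1578 cells. Blue diamonds combine 5 strata of cells by the sum of other tags, most of them CD274, and lie closer to 1 for CD274, CD61, P2X7R and CD201.

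Most CD27-positive cells were about as deep as CD27-negative cells, but they held more of the deepest cells. Median nuclear fragments were 10225.5 in negative, 10220.5 in cells with 1 tag and 10487 in positive cells, and 53.7% (50.2 to 57.1) of positive cells lay above the negative median. Median RNA UMIs were 1960, 1958 and 2016, with 54.3% (50.8 to 57.7) of positive cells above the negative median. In cells with 3 or more CD27 tags these shares were 56.95% (51.2 to 62.6) for ATAC and 60.9% (55.2 to 66.5) for RNA. The 95th percentile of fragments was 15878 in negative and 20714 in positive cells. Of positive cells, 6.18% (4.64 to 8.05) were in the deepest 5% of kept cells by both ATAC and RNA, against 1.65% (1.08 to 2.40) of negative cells.

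Barcodes with an excess of overlapping fragments were a larger share of cells with 2 or more CD27 tags. The excess was counted against the same expectation for every cell and was not corrected for depth. A diploid nucleus yields few sites covered by 3 or more fragments, and an excess of them marks barcodes that may hold more than 1 nucleus or replicated DNA. These made up 6.02% of negative cells (4.90 to 7.31), 5.38% of cells with 1 tag (4.19 to 6.80), 10.3% of cells with 2 (7.85 to 13.3) and 12.6% of cells with 3 or more (9.06 to 16.9). At or below the 95th percentile of fragments the shares were 2.64% (1.89 to 3.58) in negative and 2.66% (1.63 to 4.08) in positive cells. Above it they were 88.7% (78.1 to 95.3) and 97.3% (90.6 to 99.7), and such deep cells made up 3.93% of negative and 8.97% of positive cells. Over the strata of other tags, from fewest to most, the shares were 5.63%, 3.81%, 4.93%, 4.55% and 12.5% in negative cells. In positive cells they were 2.40%, 5.67%, 4.55%, 5.65% and 28.1%. In the stratum with 41 to 162 other tags the counting intervals were 8.71 to 17.2 and 22.3 to 34.4. That stratum is wide. ATAC depth was not matched within it, and its part in the gap was not tested. Doublets had not been removed, and their part in the CD27 counts was not tested. Without the 253 cells with such an excess, the ratio of the other 11 antibodies was 1.13, and 50.6% of positive cells lay above the negative median of fragments.

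Mitochondrial reads took 0.621% of ATAC reads in negative and 0.435% in positive cells, and this gap came from the upper end of the range. The medians per cell were 0.219% and 0.222%, and the 95th percentiles 2.88% and 1.20%. Intronic UMIs took 36.7% and 36.6% of RNA UMIs.

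**Figure D3:**
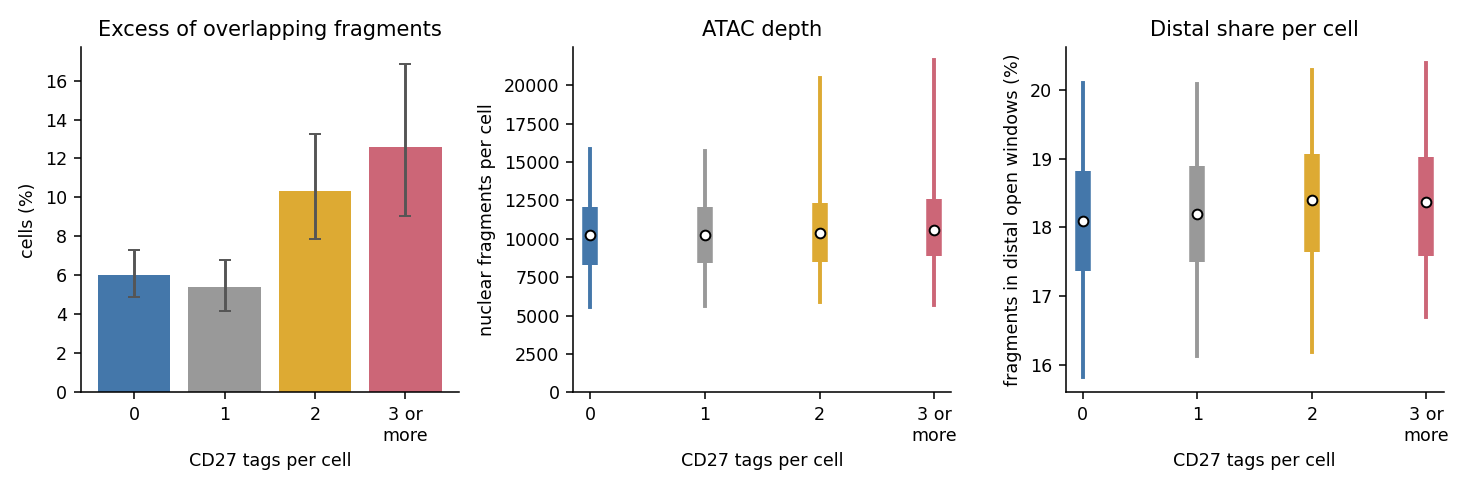
Cells by CD27 tag count (x axes). Left, share of cells with an excess of overlapping fragments (%, 95% binomial intervals), from 5.38% with 1 tag to 12.6% with 3 or more; middle, nuclear fragments per cell, and right, share of fragments in distal open windows per cell (%, axis not from 0), with the median (dot), quartiles (thick bar) and 5th to 95th percentiles (thin bar).

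Over the genome, the chromatin of both groups was nearly the same. Fragments were counted in promoters (1 kb on each side of a transcription start site, TSS), in genes with 2 kb upstream, and in 30342 distal open windows of 1 kb, which lie over 2 kb from every TSS and hold 100 or more fragments. Promoters held 36.6% of nuclear fragments in negative and 36.5% in positive cells, a log2 ratio of -0.0019 (-0.0038 to 0.000060). Distal open windows held 17.9% in negative cells, 18.1% in cells with 1 or 2 tags and 18.3% in cells with 3 or more. The log2 ratio of positive to negative was 0.020 (0.017 to 0.023), which is small beside the spread of the share between cells. The median share per cell was 18.1% in negative and 18.4% in positive cells, and 59.8% (56.3 to 63.1) of positive cells lay above the negative median.

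The distal share, too, moved with antibody depth. From the lowest to the highest of 5 strata of cells by distal share, the mean CD27 count went from 0.759 to 1.02 and the mean of the other tags from 23.8 to 35.2. Within strata of other tags the log2 ratio of distal windows was 0.0091, and between the 25% of cells at each end of the centred log ratio it was 0.0012, while without cells with excess overlaps it was 0.026. The upper end of the centred log ratio had fewer other tags by construction, so the value of 0.0012 is not free of antibody depth. Fragments too short to span a nucleosome took 32.7% and 32.8%, and chromosome X took 1.92% and 1.91%. A ribosomal RNA-like repeat on chromosome 17 took 0.306% of fragments in negative and 0.273% in positive cells, a log2 ratio of -0.16 (-0.18 to -0.14). Within strata of other tags the ratio for this repeat was -0.11, and without cells with excess overlaps -0.16. Its spread between cells was not examined.

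Between the 19260 genes with 200 or more fragments over both groups, the log2 ratios were centered at -0.0022 with an SD of 0.124, where counting error alone gives 0.113. On 9310 genes with 1000 or more fragments the SD was 0.0816 against 0.0742. A log2 ratio of 0.32 in either direction served as a threshold of size, not of significance. CD27-positive cells were higher by more than that at 166 genes (0.862% of those compared) and lower at 245 genes (1.27%). Among genes with 1000 or more fragments only 1 was higher and 6 were lower by that size. Of 13845 promoters with 200 or more fragments, 1.39% were higher and 1.7% lower, and of 5588 distal windows 5.67% were higher and 3.63% lower. These shares are the background for every count below, and the same contrast set the ratios of all genes named.

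Cd27 itself was about equally accessible in both groups. The gene (chromosome 6, 125232622 to 125237010 on mm10, minus strand) with its upstream 2 kb held 294 fragments in negative, 230 in cells with 1 tag and 170 in positive cells. These correspond to 17.8, 17.9 and 18.5 CPM, the count per 1000000 nuclear fragments, and the log2 ratio of positive to negative was 0.06 (-0.23 to 0.33). In cells with 3 or more tags the level was 17.8. The interval does not show that the levels were equal. The promoter held 157 and 93 fragments, a log2 ratio of 0.09.

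Around Cd27, 3 sites stood out in 1 kb bins. The bin just upstream of the TSS held 5.10 CPM in negative, 5.92 in cells with 1 tag and 4.36 in positive cells, and the bin just downstream 3.82, 4.52 and 5.45. A bin 4 to 5 kb upstream held 7.95, 7.94 and 8.72, and a bin 5 to 6 kb downstream, past the end of the gene and over the start of Tapbpl, held 11.8, 10.6 and 9.92. Vamp1 spans all of Cd27, so fragments counted for Cd27 are shared with it. The order of the groups differed from bin to bin, and no bin held more than 194 fragments in a group. The promoter is printed to show what lies at this start site, from 250 bases before the RefSeq TSS at chr6:125237018-125237277 on GRCm38.p6 (minus strand), with the first 10 transcribed bases in capitals.
Cd27 promoter: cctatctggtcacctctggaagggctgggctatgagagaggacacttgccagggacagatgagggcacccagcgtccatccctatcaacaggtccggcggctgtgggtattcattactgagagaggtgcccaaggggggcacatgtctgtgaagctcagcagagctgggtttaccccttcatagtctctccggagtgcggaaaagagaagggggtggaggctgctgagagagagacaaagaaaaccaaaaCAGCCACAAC

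The whole RefSeq promoter window of Cd27, which runs further into the gene, held none of 19 short motifs searched on both strands, among them NF-kB (GGGANTTCC, in 1.68% of 32851 mouse promoters of the same length), RUNX (TGTGGTT, 5.27%), GATA factors (AGATAA, 11.2%), PU.1 (GAGGAAG, 13.6%) and ETS (CCGGAAG, 8.86%). This says only that these letters are not in the window.

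Of the 21 genes within 200 kb of Cd27, 20 had 20 or more fragments, with a median log2 ratio of -0.04 and a range of -0.24 to 0.20. None passed the threshold of 0.32. The TNF receptor genes Ltbr and Tnfrsf1a lie in this interval too. Ltbr, the lymphotoxin beta receptor, had 26.03 and 23.9 CPM in negative and positive cells, a log2 ratio of -0.12 (-0.37 to 0.11). Tnfrsf1a, the main receptor for TNF, had 31.6 and 35.6, a log2 ratio of 0.17 (-0.03 to 0.38). Lpar5, a receptor for lysophosphatidic acid, had the highest ratio, at 0.20 (-0.01 to 0.40). Ing4, a chromatin reader, was at -0.23 (-0.43 to -0.04), and Gm44597 and 4930557K07Rik, which overlap it and share its fragments, were at -0.24 and -0.23. Gapdh, which encodes the glycolytic enzyme, was at -0.07 (-0.20 to 0.06).

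For the genes of the other 11 antigens, counted with 2 kb upstream, the intervals of the log2 ratio also contained 0. Itgb3, which encodes CD61, had 93.9 and 94.3 CPM in negative and positive cells, a log2 ratio of 0.01 (-0.12 to 0.13). Cd274 had 34.2 and 32.9, a log2 ratio of -0.05 (-0.26 to 0.15). Tnfrsf18, which encodes CD357, had 158 and 71 fragments, a log2 ratio of -0.30 (-0.73 to 0.10). P2rx7 was at 0.01 (-0.12 to 0.14) and Procr, which encodes CD201, at -0.12 (-0.49 to 0.23). The highest ratio was at Mrc1, which encodes CD206, at 0.18 (-0.02 to 0.39). The promoter of Mertk, which encodes a receptor for the uptake of dying cells, had 347 and 259 fragments and a ratio of 0.42 (0.19 to 0.66), where the whole gene was at 0.10 (-0.05 to 0.23). The promoter of Cd68 had 166 and 67 fragments and a ratio of -0.46 (-0.90 to -0.05), where the whole gene was at -0.27 (-0.62 to 0.07). That of Tnfrsf18 had 142 and 60 and a ratio of -0.39 (-0.86 to 0.05). These 3 promoters, with 200 or more fragments each, were past the threshold. The promoters of Cd27, Itgb3, Cxcr3, Cd274 and P2rx7 also held 200 or more and were not past it. So few promoters allow no comparison with the shares over all such promoters, 1.39% higher and 1.7% lower. The 12 antigen genes had a median of 0.02, and none passed the threshold as a whole gene.

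The CD27 pathway list held 16 genes from ligand to NF-kB. The ligand gene Cd70 had only 50 fragments in negative and 38 in positive cells, 3.03 and 4.14 CPM, with a log2 ratio of 0.45 (-0.20 to 1.09). The adaptor genes Traf2, Traf3 and Traf5 had ratios of -0.04, -0.03 and 0.03. Siva1, which encodes a protein that binds the tail of CD27, was at -0.01 (-0.14 to 0.12). Map3k14, which encodes the NF-kB-inducing kinase, was at 0.06 (-0.04 to 0.16). The NF-kB subunit genes Relb, Nfkb1, Nfkb2 and Rela were at 0.06, 0.05, 0.05 and -0.05. The list median was 0.0063, beside -0.0025 over all genes, and none of the 15 genes with 200 or more fragments passed the threshold.

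The 24 genes of the TNF receptor family had a median log2 ratio of 0.06, with 15 of 24 above 0, beside 12664 of 25706 over all genes with 20 or more fragments. Summed over the list, fragments were higher in positive cells by 0.05 (0.010 to 0.10), at 709, 725 and 735 CPM in cells with 0, 1 and 2 or more tags. Tnfrsf1b, the second TNF receptor, had 73.8 and 80.4 CPM in negative and positive cells, a log2 ratio of 0.12 (-0.01 to 0.26). Tnfrsf11b, the decoy receptor osteoprotegerin, was at 0.20 (-0.0017 to 0.40) and Tnfrsf11a, its signaling counterpart RANK, at 0.13 (-0.07 to 0.33). Tnfrsf21 was at 0.06, Edar at 0.08 and Tnfrsf8 at -0.01. The lowest members were Tnfrsf4 (OX40), with only 56 and 20 fragments and a ratio of -0.62 (-1.46 to 0.12), and Tnfrsf18 at -0.30, followed by Tnfrsf25 at -0.15, Ltbr and Tnfrsf14 at -0.12 and Tnfrsf19 at -0.11. All 24 intervals contained 0. No member with 200 or more fragments passed the threshold in either direction.

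HSC identity genes summed to a slightly lower level in CD27-positive cells. Of the 20 list sums, 3 had counting intervals above 0 and 1, this list, had one below 0. The list of 22 genes had a median of -0.04, with 6 of 22 above 0 (12664 of 25706 over all genes), and its sum was 2611 CPM in negative cells, 2583 in cells with 1 tag and 2548 in positive cells, a log2 ratio of -0.04 (-0.06 to -0.01). Mllt3, a regulator of HSC maintenance, had 206 and 193 CPM in negative and positive cells, a log2 ratio of -0.09 (-0.18 to -0.01). Mecom and Prdm16, transcription regulators needed by HSCs, were at -0.02 and -0.03, and Meis1 at -0.04, each with an interval that contained 0. Hlf was at 0.03 and Tek, the angiopoietin receptor, at 0.18 (-0.07 to 0.42). None passed the threshold.

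The panel genes of the study, chosen there on other cells, showed no gap of that size. The 5 PLT panel genes had ratios between 0.03 and 0.08, all with intervals that contained 0. Vwf has a reporter that the study calls only moderately selective for platelet-biased HSCs. The gene had 216 CPM in negative, 215 in cells with 1 tag and 220 in positive cells, a log2 ratio of 0.03 (-0.05 to 0.11). Pdgfc and Inhba were both at 0.03, Gpr4 at 0.05 and Plek2 at 0.08. In the MUL panel the median was 0.10 and 4 of 5 genes were above 0. Clec4d, a C-type lectin, had 16.1, 17.4 and 19.6 CPM in cells with 0, 1 and 2 or more tags, a log2 ratio of 0.29 (0.01 to 0.57). Flt3, the receptor of multipotent progenitors, was at 0.04 (-0.10 to 0.19), Crip2 at 0.11, Ctla2a at 0.10 and Sec16b at -0.06.

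Genes higher in MUL than in PLT clones (62 genes) had a median of 0.04, with 37 of 62 above 0 (12664 of 25706 over all genes), and a summed ratio of 0.03 (0.01 to 0.05). The uncharacterized gene 2610307P16Rik gave the most fragments of this list, with 217 and 233 CPM and a ratio of 0.10 (0.03 to 0.18), followed by Dapp1 at -0.0034 and Srgap1 and Paqr5 at 0.09. The 67 genes higher in PLT clones had a median of 0.01, with 36 of 67 above 0, and a summed ratio of 0.00038 (-0.017 to 0.018), with Creb5 at -0.0059 and Pik3r1 at -0.06. Of 63 PLT clone genes with 200 or more fragments, Kynu and Tmem47 were higher by more than the threshold, at 0.34 and 0.41, and Phf11d was lower, at -0.47, while none of 57 MUL clone genes passed it. Within strata of other tags the medians of the MUL and PLT clone lists were 0.04 and 0.01.

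Lists of other blood cells and of cell states had medians between -0.05 for B cell genes and 0.05 for myeloid genes. Myeloid genes summed to 332, 352 and 348 CPM with 0, 1 and 2 or more tags, and to a ratio of 0.06 (0.0011 to 0.13), with 7 of 12 members above 0. Csf1r, the macrophage colony-stimulating factor receptor, had 46.1 and 54.6 in negative and positive cells, a log2 ratio of 0.25 (0.08 to 0.41), and gave 501 of the 3190 fragments of the list in positive and 759 of 5479 in negative cells. Spi1, which encodes PU.1, was at 0.07 (-0.06 to 0.20) and Prtn3 at 0.02, while Irf8 was at -0.08, Itgam at -0.09, Mpo at -0.12 and Elane at -0.04, all with intervals that contained 0. Macrophage genes had a median of 0.0012 and a summed ratio of 0.04 (-0.03 to 0.12), with Mertk at 0.10, Axl at -0.10 and Mrc1 at 0.18. Megakaryocyte genes had a median of 0.0056, with Zfpm1 and Fli1 both at -0.03 and Itga2b at -0.07 (-0.17 to 0.04). The erythroid median was -0.02, with Ank1 at 0.09, Sptb at -0.13, Car2 at -0.04 and Tfrc at -0.02.

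Genes of lymphoid priming had a median of -0.0092, with Tcf4 at 0.08, Bcl11a and Runx3 at -0.03 and Notch1 at 0.05. Ikzf1, of the same list, was at 0.16 (0.03 to 0.28), while 10 of 20 members were above 0. B cell genes summed to a ratio of 0.0080 (-0.07 to 0.08), opposite in sign to their median, with Pax5 at 0.08, Ebf1 at -0.04, Rag2 at 0.08 and Blnk at 0.03. T cell genes had a median of -0.00035, with Gata3 and Lck both at -0.06 and Cd247 and Tcf7 at 0.0024 and 0.0042. The cell cycle lists, S phase and mitosis, had medians of -0.01 and 0.0028. The replication genes Gins2, Dtl, Chaf1b and Mcm7 were at -0.08, -0.07, 0.0032 and 0.07, and the mitotic genes Kif11, Mki67, Ccna2 and Cenpf at -0.13, 0.02, -0.02 and 0.22 (0.05 to 0.38).

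Of the remaining lists, aged HSC genes had a median of 0.02, with Alcam, an adhesion gene, at 0.04 and Itgb3 at 0.01. Early response genes had a median of -0.03 and 5 of 17 above 0, with Dusp1 at -0.02, Egr1 at -0.10 (-0.19 to -0.0032), Fosb at -0.04 and Jun at -0.03. Interferon genes had a median of -0.03, with Irf1 at -0.13, Stat2 at 0.01 and Oas3 at -0.0065. No list median passed the threshold. Over all 20 lists, 334 distinct genes had 200 or more fragments, of which 3 (0.898%) were higher by more than the threshold and 3 (0.898%) lower, near the background shares of 0.862% and 1.27%. The 3 higher genes were Mx1, Kynu and Tmem47, at 0.34, 0.34 and 0.41, and the lower ones included C1qc and Phf11d, at -0.37 and -0.47. These 5 were named after their values were seen, as were Cd70, Traf2, Traf5, Siva1, Nfkb2, Rela, Tnfrsf11a, Tnfrsf11b, Tnfrsf4, Tnfrsf25, Tnfrsf14, Tnfrsf19, Itgam, Mpo, Elane, Hlf and Tek, which the rule for named genes does not pick. Ikzf1 was named in the same way. The sign of a list median held little weight, since between 1 and 9 of the 20 medians had the other sign under each alternative, 9 of them with promoters alone.

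**Figure D4:**
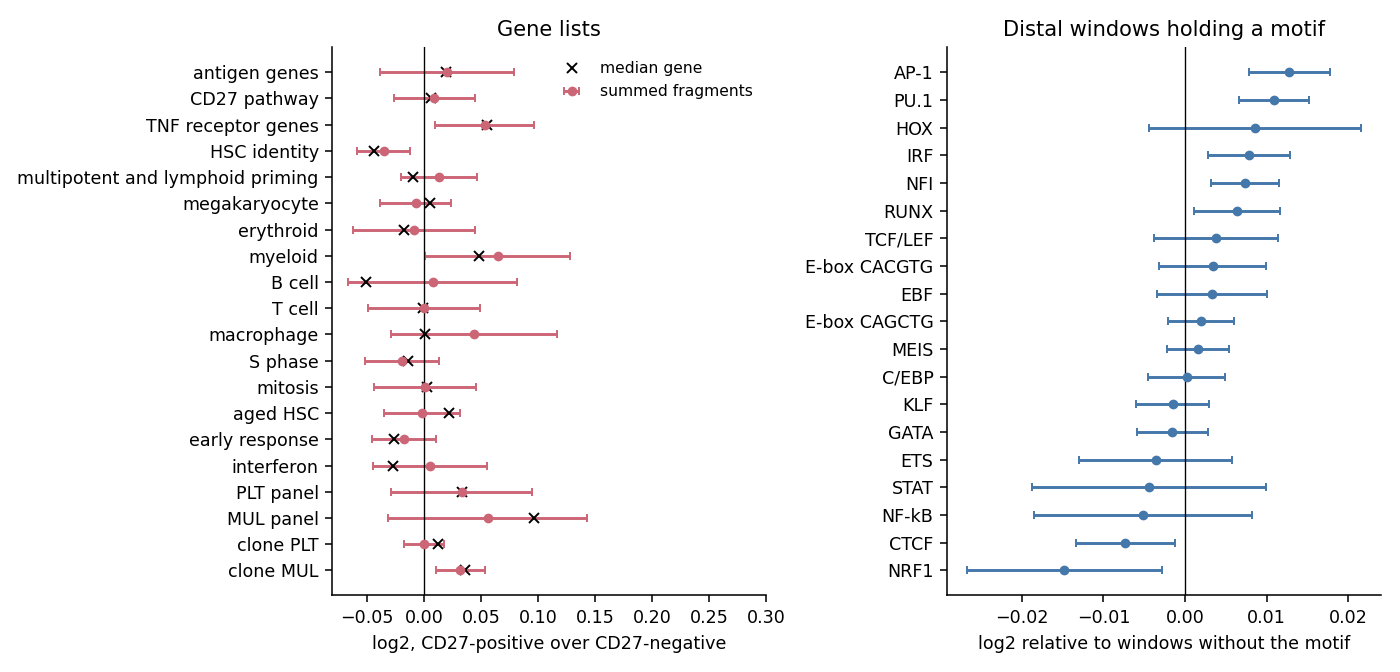
Left, log2 ratio of CD27-positive over CD27-negative cells (x axis) for the 20 gene lists (y axis), as summed CPM with 95% intervals (red) and as the median gene (black crosses); TNF receptor, myeloid and MUL clone genes lie above 0 and HSC identity genes below. Right, log2 ratio of distal windows holding each motif relative to those without it (x axis), with 95% intervals, from -0.015 for NRF1 to 0.013 for AP-1.

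At the edges of the ranking lay genes that were picked by the contrast itself, so their ratios describe and support nothing. Of genes with 400 or more fragments, the 12 with the highest lower bound had log2 ratios between 0.31 and 0.50. Gprin3, a G protein-regulated inducer of neurite outgrowth, had 32.6 CPM in negative cells, 37.6 in cells with 1 tag, 47.2 in cells with 2 and 35.6 in cells with 3 or more, and a ratio of 0.39 (0.20 to 0.58). Fam13a, 323 kb away on chromosome 6, had 18.3, 19.9, 24.5 and 25.6 and a ratio of 0.45 (0.20 to 0.70). Traf3ip1, a ciliary protein that binds TRAF3, had 27.8, 32.2, 34.8 and 38.2 and a ratio of 0.38 (0.17 to 0.58). The levels of Fam13a and Traf3ip1 thus were ordered by tag count, and that of Gprin3 was not.

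Kif19a, a kinesin, had 30.6 and 39.6 CPM in negative and positive cells, a ratio of 0.37 (0.17 to 0.57). Apobec1, a cytidine deaminase that edits RNA, had 23.4 and 30.6, a ratio of 0.39 (0.16 to 0.62). Kcnmb2, a potassium channel subunit, had 16.3 and 22.0, a ratio of 0.43 (0.16 to 0.70). Also among the 12 were Gm47790 at 0.50, B430218F22Rik at 0.43, 4930544D05Rik at 0.43, Gm8239 at 0.42 and 9530080O11Rik at 0.31. B430218F22Rik overlaps Mrps30, a mitochondrial ribosome gene at 0.37, and 9530080O11Rik overlaps Hook1 at 0.28, so shared fragments cannot be assigned to 1 gene.

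The 12 genes with the lowest upper bound had ratios between -0.57 and -0.34. Cacna2d3, a calcium channel subunit, had 33.3 CPM in negative cells, 28.3 in cells with 1 tag, 24.9 in cells with 2 and 19.2 in cells with 3 or more, and a ratio of -0.55 (-0.79 to -0.32). Sh3bgr, a small SH3-binding protein, had 22.0, 18.1, 13.2 and 17.5 and a ratio of -0.57 (-0.87 to -0.28). Vamp5, a vesicle-associated membrane protein, had 43.4, 35.7, 35.9 and 26.8 and a ratio of -0.42 (-0.62 to -0.22). Polr3c, a subunit of RNA polymerase III, had 45.9, 39.0, 34.6 and 35.6 and a ratio of -0.39 (-0.59 to -0.20). Cenpt, a kinetochore protein, had 60.6 and 47.8 in negative and positive cells and a ratio of -0.34 (-0.51 to -0.18), with few fragments at its own promoter (57 and 30). Its counted region overlaps Thap11, with 639 and 289 fragments and a ratio of -0.30, and Tsnaxip1 at 0.05. Shared fragments cannot be assigned to 1 gene.

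The other 7 were Popdc2 at -0.55, 2610002M06Rik at -0.51, 4930503L19Rik at -0.49, Adcy8, an adenylyl cyclase gene, at -0.46, Gm15569 at -0.45, A230072C01Rik at -0.44 and Pard6g, a cell polarity gene, at -0.35. In all, 16 of the 24 genes had a counted region that overlapped another gene. Cells with 1 tag took no part in the ranking, and their level lay between those of negative and positive cells for 12 of 12 higher and 11 of 12 lower genes, with Popdc2 as close as 19.3 and 19.2 CPM and 4930503L19Rik above both. A level between both groups is also what genes picked for a wide gap would show where CD27 made no difference. All 24 had the same sign within strata of other tags and without cells with excess overlaps, which reuse most of the same fragments and so give no support.

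**Figure D5:**
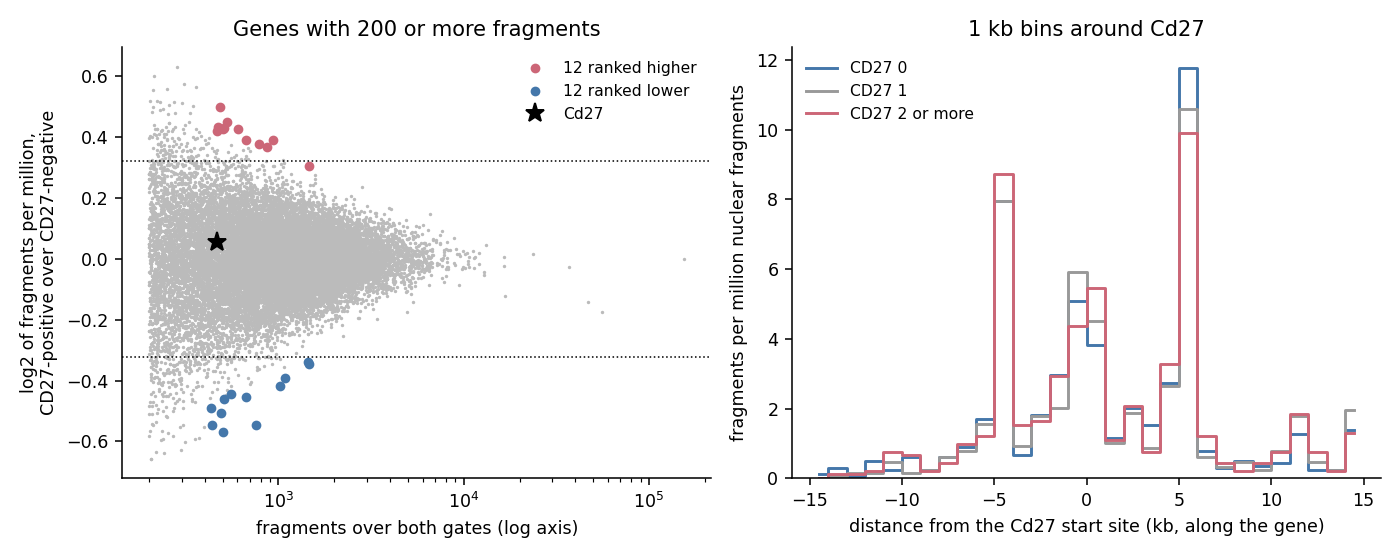
Left, log2 ratio of CPM in CD27-positive over CD27-negative cells (y axis) against the fragments over both gates (x axis, log scale) for 19260 genes (gray), with the 12 highest-ranked (red) and 12 lowest-ranked (blue) genes, Cd27 (star, 0.06) and dotted lines at the threshold of 0.32. Right, CPM (y axis) in 1 kb bins by distance from the Cd27 start site (x axis, kb along the gene) for cells with 0, 1 and 2 or more tags.

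Promoters at the ends of the ranking held few fragments, and their ratios too were picked by the contrast. The 5 ranked higher had ratios from 0.61 to 0.77 and included those of Tmem229a, Npr3, Mir124a-1hg and Rtl6. Npr3, a clearance receptor for natriuretic peptides, had 6.80, 8.18 and 11.01 CPM in cells with 0, 1 and 2 or more tags, a ratio of 0.70 (0.29 to 1.097). The 5 ranked lower were those of Gatm, Plekhh1, Megf6, Gm16155 and Casp1, with ratios from -0.69 to -0.60. Casp1, the protease of the inflammasome, had 11.3, 7.94 and 7.19, a ratio of -0.65 (-1.09 to -0.25), and Gatm, an enzyme of creatine synthesis, had 12.8, 11.99 and 7.96, a ratio of -0.68 (-1.09 to -0.30).

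Of the 10 distal windows ranked at the ends, 7 lay between genes, 2 in introns and 1 over an exon of Pgghg, and none lay within 200 kb of Cd27. The highest-ranked window, in an intron of Klhl29 (chromosome 12, 5213001 to 5214000), had 7.83, 10.2 and 13.1 CPM in cells with 0, 1 and 2 or more tags, a ratio of 0.74 (0.37 to 1.11). The next, between genes with Dancr as the nearest TSS 32941 bp away (chromosome 5, 74126001 to 74127000), had 7.77, 9.89 and 12.4, a ratio of 0.68 (0.30 to 1.05). The lowest-ranked window, 6276 bp from the TSS of Prss36 (chromosome 7, 127953001 to 127954000), had 9.95, 7.55 and 5.23, a ratio of -0.92 (-1.42 to -0.46). The next, 23112 bp from Rnf186 (chromosome 4, 138943001 to 138944000), had 14.6, 14.3 and 9.04, a ratio of -0.69 (-1.07 to -0.33). The remaining 3 higher windows had ratios of 0.65 to 0.68 and the remaining 3 lower ones of -0.78 to -0.68.

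The 200 bases with the most transposase cuts in each of these 4 windows are printed to show the sequence behind the widest gaps, on the plus strand of mm10 with matches to the letters of GATA factors (AGATAA), RUNX (TGTGGTT), ETS (CCGGAAG), PU.1 (GAGGAAG) or AP-1 (TGANTCA), on either strand, in capitals. Stretches are chr12:5213801-5214000 and chr5:74126591-74126790 (higher), and chr7:127953292-127953491 and chr4:138943794-138943993 (lower).
Klhl29 intron, higher: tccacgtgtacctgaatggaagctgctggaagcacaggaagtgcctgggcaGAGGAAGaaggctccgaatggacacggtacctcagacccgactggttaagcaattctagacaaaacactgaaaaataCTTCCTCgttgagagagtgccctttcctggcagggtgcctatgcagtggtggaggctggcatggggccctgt
Nearest Dancr, higher: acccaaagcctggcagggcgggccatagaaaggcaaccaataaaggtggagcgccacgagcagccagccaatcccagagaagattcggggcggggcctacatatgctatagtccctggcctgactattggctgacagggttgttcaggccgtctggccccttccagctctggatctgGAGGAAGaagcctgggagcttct
Nearest Prss36, lower: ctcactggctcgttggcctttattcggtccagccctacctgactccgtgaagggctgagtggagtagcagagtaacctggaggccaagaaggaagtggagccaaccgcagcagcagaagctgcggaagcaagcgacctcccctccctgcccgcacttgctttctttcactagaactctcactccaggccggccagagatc
Nearest Rnf186, lower: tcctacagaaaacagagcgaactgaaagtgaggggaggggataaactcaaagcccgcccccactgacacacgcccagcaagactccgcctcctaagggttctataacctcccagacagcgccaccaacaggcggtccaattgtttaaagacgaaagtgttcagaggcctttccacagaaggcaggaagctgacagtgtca

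The first 2 sequences hold the PU.1 letters and the last 2 hold none of the 5 motifs. Of 200-base stretches over all distal open windows, 9.43% hold the PU.1 letters, 9.81% GATA, 6.79% AP-1, 5.95% RUNX and 1.46% ETS, and 4 sequences allow no comparison.

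Windows grouped by motif differed little. Relative to windows without the motif, those with AP-1 letters (30.0% of windows) were higher in CD27-positive cells by a log2 of 0.013 (0.0078 to 0.018). Those with PU.1 letters (39.3%) were higher by 0.011 (0.0066 to 0.015), IRF (GAAANNGAA, 30.5%) by 0.0078, NFI (TTGGCA, 43.5%) by 0.0073 and RUNX (26.7%) by 0.0063. Windows with NRF1 letters (GCGCATG, 4.61%) stood at -0.015 (-0.027 to -0.0029) and with CTCF letters (AGGGGGC, 19.2%) at -0.0073 (-0.013 to -0.0012). Those with GATA, the factor family of erythroid cells, megakaryocytes and HSCs (40.2%), stood at -0.0016 (-0.0059 to 0.0028), and those with NF-kB (4.11%) at -0.0051 (-0.018 to 0.0082). For AP-1, cells with 1 tag stood at 0.0072 relative to negative cells and the value within strata of other tags was 0.0071. Within 5 strata of GC content, AP-1 stood at 0.012 and PU.1 at 0.011. All distal windows together were higher in each of 5 strata of GC content, from 0.012 in the stratum with the most GC to 0.029 in the middle one.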

How the data were processed

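LT-HSCs were measured in 3 libraries of 1 pool. The authors processed ATAC and RNA with Cell Ranger ARC 2.0.2 and its mm10 reference, per the file headers, and antibody tags with CITE-seq-Count, whose version the sources used here do not give. The deposited values are counts without normalization: fragments, UMIs and reads per barcode, and antibody tags per cell. Rows for unmatched tags stayed out of all sums of antibodies. In the deposited antibody list the entry for CD106 carries the name of another antibody, and identifiers were used.

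The rule was a CD27 count of 2 or more against 0, in cells with 10 or more tags over 12 antibodies. Members and lists were chosen with earlier results of these data known. Duplicate fragments were taken as collapsed by the authors. Fragments on chromosomes 1 to 19, X and Y were summed per group over GENCODE M21 genes with 2 kb upstream (32587 genes), promoters and distal windows, and scaled to 1000000 nuclear fragments. A threshold of 0.32 on the log2 scale was used for counts of genes. Log2 ratios had 0.5 added to each count. No test was run, since cells of 1 pool are not replicates. Lists used genes with 20 or more fragments, and 432 of 433 entries matched a gene (not Mx2). Named were the 12 antigen genes, the PLT and MUL panels, genes within 200 kb of Cd27, the 12 highest lower and lowest upper bounds of genes with 400 or more fragments, 5 promoters and 5 windows at each end with 200 or more, and up to 4 list members with most fragments. Genes overlapping one already taken, and Gm42418, AY036118 and Gm26917, were skipped. A few genes that the rule picks are not reported here.

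No doublets were removed. Sites on autosomes under at least 3 fragments (each up to 900 bp) were counted per cell. The Poisson expectation was the mean over kept cells, with no term for the depth of a cell. Cells above it at an adjusted value below 0.01 were left out in an alternative. Other alternatives were CD27 counts of 3 or more or 1 or more, the 25% of cells at each end of the centred log ratio, Mantel-Haenszel combination over 5 strata of other tags, 10 or more tags over 11 antibodies, 20 or more tags, thinning to 6000 fragments (244 cells left out), scaling by promoter fragments, promoters alone, and filters of 50 fragments per gene and 200 per window. Interval code was checked on simulated data. The RNA matrix was not analysed here. Software was Python 3.11.15, numpy 2.4.6, scipy 1.17.1, pandas 2.3.3, statsmodels 0.14.6, numba 0.67.0 and matplotlib 3.10.9. Promoter sequences were from RefSeq on GRCm38.p6.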

Additional observations from a re-analysis of the deposited data

How the results depend on the processing

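The ratio of the other 11 antibodies was 1.27 with 3 or more CD27 tags, 1.097 with 1 or more, 1.09 with 20 or more tags and 1.13 without cells with excess overlaps. It was 1.02 within strata of other tags, which match cells on that sum. It turned to 0.862 by the centred log ratio, which lowers it by construction. RNA depth was above the negative median in 60.9% of cells with 3 or more tags. The promoter share had log2 ratios of -0.012 by the centred log ratio, -0.0047 within strata, -0.0054 with 20 or more tags and 0.0014 without excess cells, and the distal windows 0.028 with 3 or more tags, 0.015 with 1 or more, 0.0012 by the centred log ratio, 0.0091 within strata, 0.0086 with 20 or more tags and 0.026 without excess cells. Genes past the threshold of 0.32 numbered 411, but 1131 with 3 or more tags and 1688 with 50 or more fragments per gene, where fewer fragments stand behind each ratio. The share of them that was higher ranged from 37.5% with cells thinned to 49.4% by the centred log ratio, against 40.4%. ATAC depth and Cd27 stayed within their intervals under every alternative run, Cd27 with log2 ratios from -0.070 to 0.14 and so of either sign. No list median passed the threshold under any alternative run, but 1 to 9 of the 20 medians changed sign. Of 238 alternative values for the 24 ranked genes, which reuse most of the fragments that ranked them and are no sign of stability, 7 moved and 0 turned sign, of 180 for the summed lists 2 moved, and of 190 for motifs 11 moved. Otherwise, where a value moved, the cause was not tested.

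No paired analysis was possible because both groups came from 1 pool and no test was run. With 0 to 5 CD27 tags in nearly every cell, the gates carried little depth, tags per cell could not be told apart from antibody depth, and fewer than 100 fragments in a group left single windows and promoters uncertain by more than the threshold.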
